A study of Mus musculus with 28 samples.

Results

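The livers of 7 Sirt6 heterozygous mice (HZ) and 7 wild-type mice (WT), all given vehicle alone, were compared across all genes by RNA-seq, and they make up 14 of the 28 libraries of the series. The libraries were chosen by the column names of the vehicle count table, which give a genotype and an animal number for each column. All mice were of the 129svj strain and 11 to 13 months old. The HZ animals carried 1 altered copy of Sirt6, and the labels say neither how that allele was made nor the sex of the animals. Both groups received 0.5% CMC by gavage, the carrier in which the other 14 mice, 7 of each genotype, received the PPARα agonist WY-14643 (WY) at 50 mg/kg. Livers were taken 12 h later. Whether the animals were fed or fasted by then is not stated. Each library came from a separately numbered animal. Each is bulk RNA of a whole liver sample, in which fewer cells of a type and less RNA per cell cannot be told apart.

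SIRT6 is a nuclear sirtuin, an enzyme that uses NAD to remove acetyl and longer acyl groups from histone H3 and other proteins, and it is known for its part in glucose and lipid metabolism in the liver. PPARα is the nuclear receptor that senses fatty acids in hepatocytes. Together with RXR it binds DNA next to genes of fatty acid uptake, of peroxisomal, mitochondrial and microsomal fatty acid oxidation, of acyl-CoA thioesterases and of lipid droplet proteins, and its targets rise in the fasted liver. Whether livers with less Sirt6 differed from wild type without the agonist is the question that the vehicle groups address, and they are the baseline for the treated groups.

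Sequencing depth was close in the 2 groups. The vehicle libraries held between 16626530 and 20020078 reads assigned to genes, and between 15158 and 16606 genes had at least 1 read. The highest number of genes was that of HZ 38, and the next was 15493 in HZ 30. HZ 38 also had the lowest share of reads that did not align uniquely (37.2%) and the highest share of ambiguous reads (0.467%). Levels are given as CPM, the library's gene counts scaled to a common total, after TMM scaling, differences as the log2 fold change HZ minus WT with its standard error, and unless another tool is named the p is the unadjusted p of edgeR's quasi-likelihood test. The defining hepatocyte markers were present throughout: Alb, which encodes serum albumin, had a median of 73076 CPM in WT and 72965 CPM in HZ, and none of the 14 hepatocyte markers had a p below 0.05. HZ 38 and HZ 30 stood apart from the other HZ animals on the first principal component of the 500 most variable genes, at 22.8 and 20.2 against -7.66 to 10.1 in the other 5.

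Sirt6 itself checked the labels. Its level was between 1.87 and 3.49 CPM in WT, with a median of 2.09, and between 0.862 and 1.38 CPM in HZ, with a median of 1.28. All 7 HZ animals were below all 7 WT animals, so the groups did not overlap. The mean was 2.35 ± 0.617 CPM (SD, n = 7) in WT and 1.21 ± 0.190 CPM (SD, n = 7) in HZ. The log2 fold change was -0.96 ± 0.17 (SE), with an adjusted p of 0.173 in the fit of the vehicle libraries. The two-sided exact permutation p of the difference of mean log2 CPM was 0.000583, the smallest that any split of these animals can give. The gene is expressed at a low level, with 32 to 64 reads per WT library and 15 to 28 per HZ library. With all 28 libraries in the fit the adjusted p was 0.00696, and with DESeq2 and limma on the vehicle libraries it was 0.00420 and 0.0316. In the mice given WY, the difference was -1.04 ± 0.17 with an adjusted edgeR p of 0.0145.

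Sirt6 lies at chr10:81621785-81627797 on the minus strand of GRCm38. Within 500 kb of it, 25 other genes were tested, of which 3 were lower and 1 was higher in HZ at p below 0.05, shares of all genes at that p being 8.11% and 7.27%. The 25 differences ran from -0.42 to 0.20 with a median of -0.06. The lowest was Ankrd24, whose start lies beside that of Sirt6 on the other strand and which was singled out after its values were seen. Ankrd24 had 2.69 to 4.15 CPM in WT (median 3.35) and 2.19 to 2.91 CPM in HZ (median 2.59), a difference of -0.42 ± 0.12. With WY, it was -0.41 ± 0.12. None of the 6 other sirtuin genes had a p below 0.05.

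Across the 12277 genes tested, no difference was large enough against the spread of the 14 vehicle animals to pass an adjusted p of 0.05 in edgeR (0 genes, 0%), and the smallest adjusted p was 0.173. At an unadjusted p below 0.05, 996 genes (8.11%) were lower and 893 genes (7.27%) were higher in HZ. Those shares are the background against which each gene group below is read. For counts of signs the background is 5786 genes with a negative and 6491 with a positive difference. For 26 genes (0.212%) all HZ animals were below all WT animals, and for 6 genes (0.0489%) all were above. Other fits of the same counts did make calls at an adjusted p below 0.05. DESeq2 called 142 genes (1.16%) lower and 55 (0.448%) higher, limma with voom quality weights called 160 (1.3%) lower and 37 (0.301%) higher, and edgeR with the spread estimated over all 28 libraries called 223 (1.77%) lower and 38 (0.301%) higher. The 3 fits shared 118 called genes, 105 lower and 13 higher. Where a gene is said below to have been called, it was by 1 or more of these alternatives and not by edgeR on the vehicle libraries alone.

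**Figure D1:**
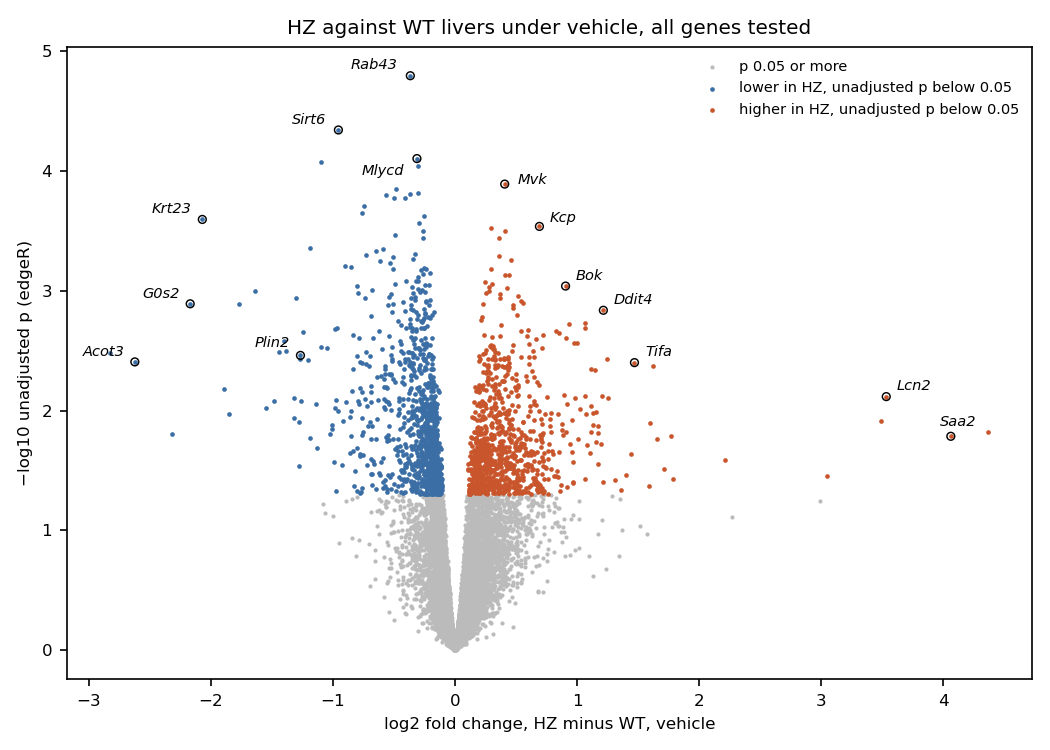
Each point is 1 of the 12277 genes tested in 7 HZ against 7 WT vehicle livers, with the log2 fold change HZ minus WT on the x axis and −log10 of the unadjusted edgeR p on the y axis. Blue points (996) were lower and orange points (893) higher in HZ at p below 0.05, none passed an adjusted p of 0.05, and circles mark named genes, with Rab43 and Sirt6 at the top and the acute phase genes Saa2 and Lcn2 far to the right.

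The same contrast in the 14 WY animals, none of which is shared with the vehicle groups, gave 1428 of 12224 genes (11.7%) lower and 1706 (14%) higher at p below 0.05, and 241 (1.97%) lower and 244 (2%) higher at an adjusted p below 0.05. Of the genes lower in HZ under vehicle at p below 0.05, 811 of 994 that were tested in both had a negative difference in the WY animals as well, and 362 of them at p below 0.05 against 24 with the opposite sign at that p. Of the genes higher under vehicle, 740 of 868 were also positive in the WY animals, with 312 at p below 0.05 in the same and 10 in the opposite direction. Over all genes tested in both, 7790 of 12047 (64.7%) had the same sign, and 46.8% had a negative difference in the WY animals.

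The gene with the smallest p was Rab43 (chr6:87788853-87812164, minus strand), a small GTPase of the Golgi and endosomal transport system. It had 224 to 277 CPM in WT (median 263) and 186 to 209.8 CPM in HZ (median 198), with no overlap. Its difference was -0.37 ± 0.06, and all 3 alternative fits called it, with adjusted p-values of 0.0110 over 28 libraries, 3.98e-06 in DESeq2 and 0.0316 in limma. Among the WY animals, its difference was -0.02 ± 0.08.

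Mlycd encodes malonyl-CoA decarboxylase, which degrades the malonyl-CoA that inhibits carnitine palmitoyltransferase. It lies at chr8:119394878-119411102 and had 109 to 132 CPM in WT (median 123) against 82.8 to 105 CPM in HZ (median 99.9). The groups did not overlap, HZ 38 was the lowest animal, and the difference was -0.31 ± 0.06. After WY, it was -0.27 ± 0.07, with an adjusted edgeR p of 0.0460. Eif4e, the cap-binding translation initiation factor, had 33.0 to 36.7 CPM in WT (median 34.8) and 25.1 to 30.9 CPM in HZ (median 27.9), again with no overlap. Its difference was -0.30 ± 0.06 under vehicle and 0.01 ± 0.05 in the WY animals. The test of the change between treatments gave an unadjusted edgeR p of 0.000381, which did not pass adjustment. Eif4e was picked for its small vehicle p, and that choice favours a small p of the change.

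Among the other named genes of clearly detectable level with small p-values were the mitochondrial import proteins Tomm40, a pore of the outer membrane, and Timm9, a chaperone of the space between the membranes. Tomm40 had 35.0 to 44.7 CPM in WT and 25.4 to 36.6 CPM in HZ (-0.37 ± 0.08). Timm9 had 25.1 to 37.9 CPM in WT and 17.3 to 25.9 CPM in HZ (-0.50 ± 0.10). HZ 38 was lowest and WT 37 was the lowest WT animal in both, which is where the groups met. Decr2, a peroxisomal reductase needed to degrade unsaturated fatty acids, had a difference of -0.41 ± 0.09 and a WT range of 236 to 299 CPM against 163 to 241 CPM in HZ. Aptx, a DNA strand-break repair protein, was at -0.48 ± 0.10. The ubiquitin ligase Rnf186 was at -0.74 ± 0.16, Fam195a at -0.77 ± 0.16, the endoplasmic reticulum ATPase Tor1b at -0.30 ± 0.06, the glycosyltransferase Pomgnt1 at -0.26 ± 0.05 and the phosphatase Dusp22 at -0.29 ± 0.06. All 12 genes with the smallest p among those lower in HZ were called by each of the 3 alternative fits. Those fits share the vehicle counts on which the 12 were picked, so the calls are no separate evidence. In the animals given WY, Timm9 (-0.31), Fam195a (-0.43) and Aptx (-0.24) were lower at an adjusted edgeR p below 0.05, and Rnf186 (-0.06), Dusp22 (-0.08) and Tor1b (-0.11) had an unadjusted p above it.

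The 26 genes whose HZ animals were all below the WT animals included several that encode mitochondrial proteins. Beside Mlycd these were Vdac2, Acads, Cox6b1, Ndufb6, Ndufb7, Higd1a, Mrpl51 and C1qbp, a list read off after the values were seen. The share of mitochondrial genes among all genes tested was not counted, so these names show no excess. Of the 31 tested genes in the oxidative phosphorylation list, which lacks Cox6b1, Ndufb6 and Ndufb7, 0 were without overlap. Of 23 genes of mitochondrial fatty acid oxidation 1 was, against 0.212% of all genes lower without overlap. Vdac2, an outer membrane channel, had 96.5 to 107 CPM in WT and 77.7 to 95.8 CPM in HZ (-0.21 ± 0.05), and Acads, the short-chain acyl-CoA dehydrogenase, had 198 to 211 CPM and 157 to 196 CPM (-0.16 ± 0.05). Emc6, a subunit of the complex that inserts membrane proteins in the endoplasmic reticulum, had 72.7 to 84.9 CPM in WT and 56.3 to 71.2 CPM in HZ, -0.26 ± 0.06 under vehicle and -0.25 ± 0.06 in the WY animals. Of the 26 genes, 25 were also lower in the WY animals and 19 of them at p below 0.05.

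The 6 genes whose HZ animals were all above the WT animals were Wdr91, Ehbp1, Gpld1, Slc7a5, Zfp182 and Heatr5b. Wdr91, a regulator of endosome maturation, had 13.3 to 15.5 CPM in WT (median 14.7) and 15.7 to 20.7 CPM in HZ (median 17.6), a difference of 0.29 ± 0.07. Gpld1, the plasma phospholipase that cleaves glycosylphosphatidylinositol anchors, had 225 to 338 CPM in WT and 341 to 466 CPM in HZ, at 0.30 ± 0.09. Slc7a5, the light chain of a transporter of large neutral amino acids, had 3.24 to 4.04 CPM in WT and 4.09 to 6.73 CPM in HZ, at 0.40 ± 0.12. All 6 were positive in the WY animals too, and Wdr91 (0.34) and Gpld1 (0.30) had adjusted edgeR p-values of 0.0368 and 0.0257 there.

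The smallest p among genes higher in HZ was that of Mvk, mevalonate kinase of the cholesterol pathway, described below. Kcp, a secreted regulator of BMP signalling, had 3.14 to 5.00 CPM in WT and 4.80 to 8.59 CPM in HZ (0.69 ± 0.15). The chromatin remodelling factor Rsf1 had 20.6 to 24.1 and 24.0 to 31.0 CPM (0.30 ± 0.07), with HZ 36 the one HZ animal inside the WT range. The adenylyl cyclase Adcy9 (0.36 ± 0.08), the transporter Abca8b (0.36 ± 0.08), Slc35e2 (0.41 ± 0.09), the chondroitin synthase Chsy3 (0.46 ± 0.11), Ehbp1 (0.30 ± 0.07) and the receptor phosphatase Ptprf (0.25 ± 0.06) followed. The aryl hydrocarbon receptor Ahr, which senses dioxins and tryptophan products, had 46.4 to 72.0 CPM in WT and 64.1 to 92.0 CPM in HZ (0.41 ± 0.10). Gja1, the gap junction protein connexin 43, had 6.60 to 8.23 CPM and 7.14 to 11.9 CPM (0.45 ± 0.11). Unlike the lower genes with the smallest p, Mvk, Rsf1, Abca8b, Ehbp1, Ahr and Gja1 were not called by all 3 alternative fits.

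**Figure D2:**
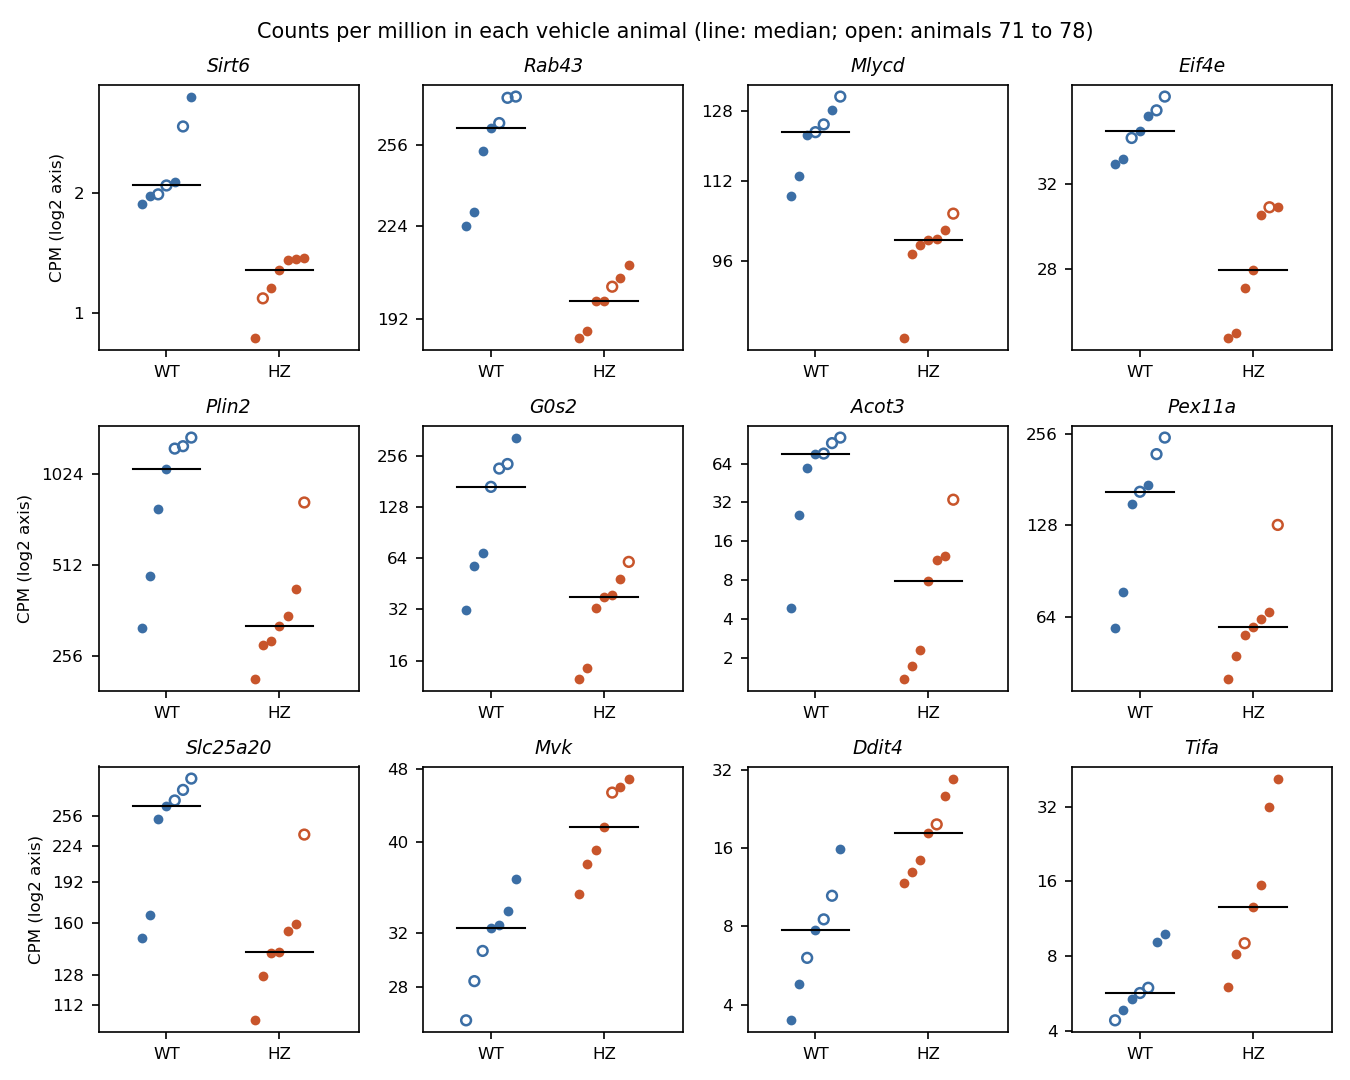
Each panel shows CPM on a log2 axis for 1 gene, with 1 point per vehicle animal in WT (blue, n = 7) and HZ (orange, n = 7), a line at the group median and open circles for the animals numbered 71 to 78. Sirt6, Rab43, Mlycd and Eif4e did not overlap, whereas in Plin2, G0s2, Acot3, Pex11a and Slc25a20 2 or 3 WT animals reached down into the HZ range and 3 to 5 HZ animals lay within the WT range, HZ 71 (open circle) being the highest HZ animal in each.

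Lipid droplet genes had mostly negative differences. Of 23 tested genes of lipid droplets and lipolysis, 9 were lower at p below 0.05 and none was higher, and the median difference was -0.24 against 0.01 over all genes. Plin2, the coat protein of hepatocyte lipid droplets, had 317 to 1352 CPM in WT (median 1066) and 215 to 825 CPM in HZ (median 323). The difference was -1.27 ± 0.36. WT 31, WT 37 and WT 32 lay below HZ 71, the highest HZ animal, and the other 4 WT animals were above every HZ animal. G0s2, an inhibitor of adipose triglyceride lipase, ranged from 31.9 to 330.2 CPM in WT (median 169) and from 12.4 to 61.1 CPM in HZ (median 37.9). Its difference of -2.17 ± 0.53 was called by all 3 alternative fits.

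Mgll, monoacylglycerol lipase, which completes the breakdown of triglycerides, had 356 to 732 CPM in WT (median 598) and 151 to 439.7 CPM in HZ (median 296), at -0.90 ± 0.21. Fitm2, needed for droplets to bud from the endoplasmic reticulum, had 28.9 to 62.0 CPM in WT and 22.1 to 39.9 CPM in HZ, at -0.80 ± 0.19. In both, 5 WT animals were above every HZ animal. Hsd17b11, a droplet-associated dehydrogenase, had 338 to 569 CPM in WT and 254 to 403 CPM in HZ, at -0.51 ± 0.12, and its difference in the WY animals was -0.44 ± 0.07 with an adjusted edgeR p of 0.0127. Plin2 and G0s2 were at -0.12 ± 0.09 and -0.29 ± 0.23 there, and the unadjusted p of the change between treatments was 0.00571 and 0.00334, which did not pass adjustment. Cidec, a droplet fusion protein, was low in these livers, with medians of 3.88 CPM in WT and 2.14 CPM in HZ, and its difference of -0.40 ± 0.25 had a p above 0.05. Leaving out HZ 30 and HZ 38, the list's median was -0.23 with 8 members lower, and without WT 37 it was -0.14 with 9 lower and 1 higher.

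Acyl-CoA thioesterases, which release free fatty acids from coenzyme A, held the widest differences of the lipid genes. Of 12 tested members, 8 were lower and 1 was higher at p below 0.05, with a median of -0.26. Acot3, a peroxisomal member, had 4.80 to 102 CPM in WT (median 75.5) and 1.36 to 33.5 CPM in HZ (median 7.89), a difference of -2.62 ± 0.75. Acot2, the mitochondrial member, had medians of 98.8 CPM in WT and 15.2 CPM in HZ (-1.85 ± 0.62), cytosolic Acot1 had 405 and 92.2 CPM (-1.54 ± 0.51) and peroxisomal Acot4 had 111 and 38.8 CPM (-1.39 ± 0.39). For each of these, 5 WT animals were above every HZ animal, and WT 31 and WT 37 lay within the HZ range. These 4 genes, of which Acot2 was singled out after its values were seen, resemble each other in sequence. Reads that did not align uniquely were set aside in counting, so reads that fit several of these genes may be missing. The split between them is therefore uncertain.

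The members outside that cluster differed less, with less spread. Peroxisomal Acot8 had 24.8 to 41.5 CPM in WT (median 38.6) and 14.3 to 32.1 CPM in HZ (median 25.8), at -0.50 ± 0.16. Acot12, a cytosolic acetyl-CoA hydrolase of the liver, had 159.6 to 207 CPM in WT (median 179) and 137 to 180.2 CPM in HZ (median 144), at -0.30 ± 0.08. HZ 71 was the one HZ animal of Acot12 inside the WT range. With HZ 30 and HZ 38 left out, the list's median was -0.16, with 7 members lower and none higher.

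Peroxisomal fatty acid oxidation had 18 of 27 members lower and none higher, with a median of -0.31, and Mlycd, described above, was the 1 member whose groups did not overlap. Ehhadh, the bifunctional enzyme of the middle steps, had 4158 to 11941 CPM in WT (median 8848) and 1704 to 8564 CPM in HZ (median 4264), at -0.86 ± 0.34. WT 31, WT 37 and WT 78 lay within the HZ range of Ehhadh, and the other 4 WT animals were above every HZ animal. Slc27a2, which activates very long chain fatty acids, had 2189 to 2839 CPM in WT and 1463 to 2257 CPM in HZ, at -0.35 ± 0.10. The isomerase Eci2 had 312 to 479.7 CPM in WT and 209.6 to 364 CPM in HZ, at -0.39 ± 0.11. Eci2 was also lower in the WY animals (-0.21 ± 0.06, adjusted p = 0.0460), whereas Ehhadh was at -0.04 ± 0.06 there.

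Of 17 genes that build peroxisomes, 9 were lower at p below 0.05 and none higher, with a median of -0.16. Pex11a, which makes peroxisomes divide, had 58.7 to 248 CPM in WT (median 165) and 39.8 to 128 CPM in HZ (median 59.3), at -1.25 ± 0.33. Pex16 and Pex19 bring membrane proteins to peroxisomes. Pex16 had 72.9 to 99.6 CPM in WT and 49.7 to 89.2 CPM in HZ (-0.37 ± 0.10), Pex19 had 116 to 220.1 and 98.8 to 160.4 CPM (-0.54 ± 0.15), and Pex14, part of the import pore, had 48.7 to 84.9 and 41.3 to 67.1 CPM (-0.38 ± 0.12). In the treated animals, 16 of the 17 had a negative difference, 11 of them at p below 0.05, with a median of -0.14.

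Mitochondrial fatty acid oxidation had 13 of 23 members lower and none higher, with a median of -0.18. Its carnitine steps differed unevenly. Slc22a5, the carnitine importer of the cell, had 30.7 to 112 CPM in WT (median 89.8) and 24.5 to 68.6 CPM in HZ (median 31.8), at -1.05 ± 0.29. Slc25a20, which carries acylcarnitine into mitochondria, had 150.4 to 301 and 105 to 236 CPM (-0.67 ± 0.19), and Cpt2, which turns acylcarnitine back into acyl-CoA, had 217 to 429.6 and 137 to 347 CPM (-0.70 ± 0.20). Cpt1a, the regulated entry step, had 479.5 to 614 CPM in WT and 452 to 656 CPM in HZ, and its difference of -0.09 ± 0.10 was within the spread, with a p above 0.05, and ranged from -0.14 without HZ 34 to -0.05 without HZ 36. Cpt1b, the muscle form, did not pass the filter on low counts.

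The acyl-CoA dehydrogenases Acadl and Acadm start the oxidation of long and medium chains. Acadl had 409 to 482 CPM in WT (median 431) and 246 to 438 CPM in HZ (median 355), at -0.34 ± 0.10, and HZ 34 was the one HZ animal inside the WT range. Acadm had 769 to 1069.6 and 562 to 869 CPM, at -0.31 ± 0.10. Under WY, 22 of the 23 genes were negative, 16 at p below 0.05, with a median of -0.14, against a share of 11.7% of all genes lower at that p. Without HZ 30 and HZ 38 under vehicle, 11 members were lower and the median was -0.15.

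The 19 tested textbook targets of PPARα, a list that overlaps the groups above, all had a negative difference under vehicle. Of these, 15 were lower at p below 0.05 and the median was -0.67. The microsomal fatty acid hydroxylases Cyp4a10 and Cyp4a14 had medians of 2614 and 7183 CPM in WT against 1261 and 3110.2 CPM in HZ, at -0.84 ± 0.33 and -0.99 ± 0.40. HZ 38 was the lowest animal in both, at 338 and 639.7 CPM. Pdk4, the kinase that shuts off pyruvate dehydrogenase in fasting, had 4.80 to 73.4 CPM in WT (median 21.9) and 5.81 to 18.4 CPM in HZ (median 8.17), at -1.89 ± 0.59, and the animal with the lowest level of all was WT 31.

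The fasting hormone Fgf21 had 6.01 to 32.2 CPM in WT and 4.55 to 13.4 CPM in HZ (-0.78 ± 0.36), and the transcription factor Creb3l3 had 365 to 553 and 287 to 471 CPM (-0.37 ± 0.11). Angptl4, an inhibitor of lipoprotein lipase (-0.22 ± 0.17), and Vnn1, pantetheinase (-0.65 ± 0.55), did not reach a p of 0.05, with Cidec and Cpt1a the other 2 of the list. HZ 34 had the highest Vnn1 level of all, 217 CPM against a median of 48.0 CPM in HZ, and without that animal the Vnn1 difference was -1.36. Without WT 74 the Angptl4 difference was -0.14.

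The means of the list per animal show which animals carried the difference. The mean log2 CPM of the 19 genes was 8.89 ± 0.47 (SD, n = 7) in WT and 8.12 ± 0.49 (SD, n = 7) in HZ. HZ 38 was the lowest animal at 7.26 and HZ 71 the highest HZ animal at 8.75. WT 31 and WT 37, at 8.14 and 8.33, lay within the HZ range, and the other 5 WT animals were at 8.89 to 9.27, above every HZ animal. The animals numbered 71 to 78 were 3 WT, at 9.17 to 9.27, and HZ 71. Among the animals numbered 29 to 39 alone, 4 WT and 6 HZ, the list's median was -0.60 with 7 members lower, and without HZ 30 and HZ 38 it was -0.57 with 12 lower. Under WY, 17 of the 19 were negative, 5 at p below 0.05, and the median was -0.12.

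**Figure D3:**
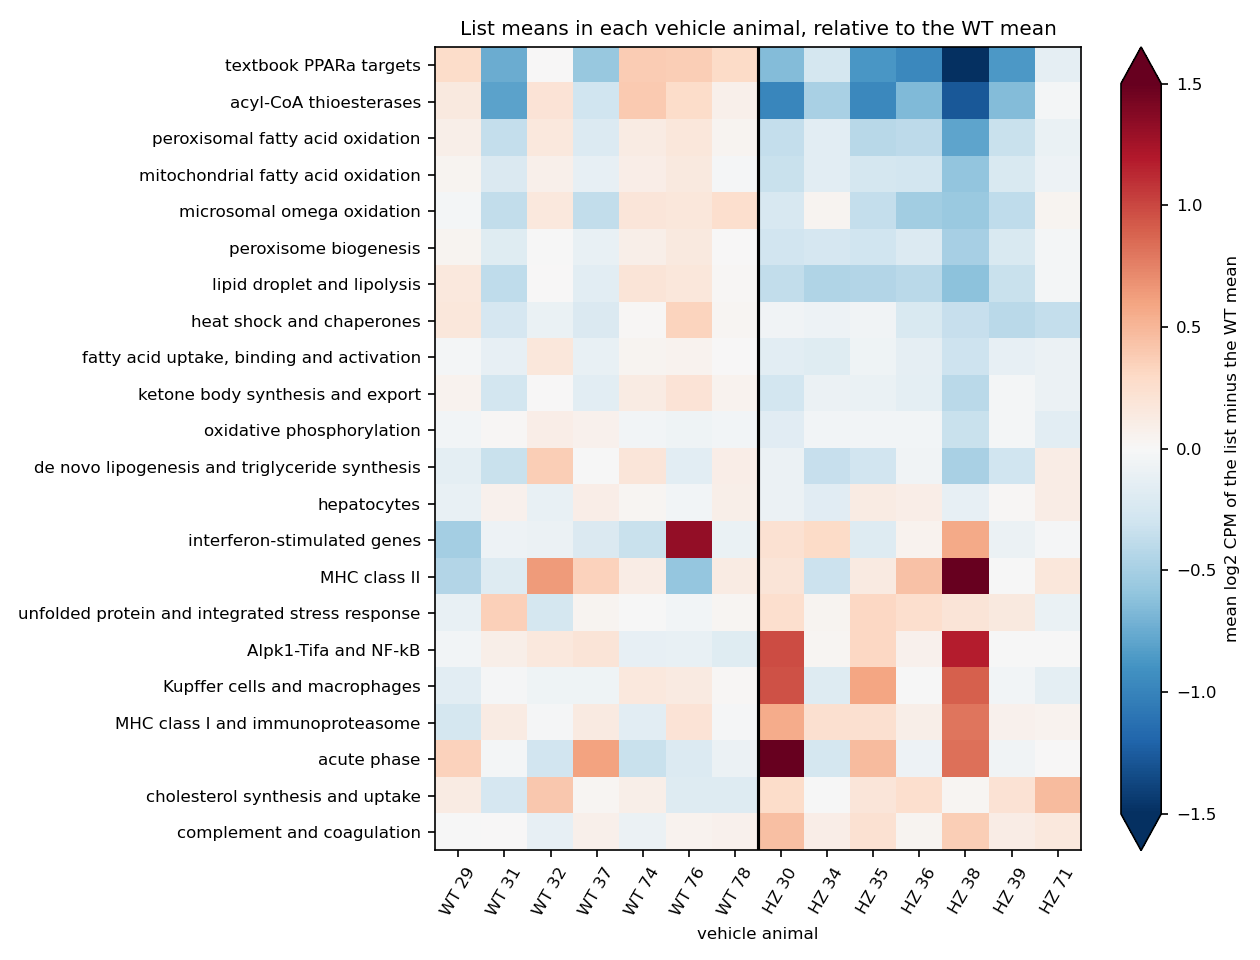
Rows are gene lists, columns the 14 vehicle animals, and the colour is the list's mean log2 CPM in that animal minus the WT mean, cut at 1.5 in either direction. The lipid lists at the top were lowest in HZ 38 and were also low in WT 31 and WT 37. Most inflammatory lists near the foot were high in HZ 30 and HZ 38 and near the WT mean in most other HZ animals. MHC class II was above every WT animal only in HZ 38, whereas complement was above every WT animal in 6 of the 7 HZ animals.

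Ppara, the receptor gene, had 432 to 669.6 CPM in WT (median 564) and 371 to 532 CPM in HZ (median 446), a difference of -0.35 ± 0.10. WT 32, the lowest WT animal, lay between the HZ animals, and WT 29 and WT 31 lay below HZ 30. The fit of 28 libraries called it, with an adjusted p of 0.0442, and DESeq2 and limma did not, at 0.0555 and 0.0668. With WY, its difference was -0.00 ± 0.08. It was the only 1 of 19 tested PPARs, RXRs and coregulators with a p below 0.05. Pparg, the adipose receptor, had 3.06 to 6.96 CPM in WT and 4.32 to 12.0 CPM in HZ (0.49 ± 0.26), and the coactivator Ncoa2 was at 0.12 ± 0.06, both with a p above 0.05. Without HZ 38 the Pparg difference was 0.30.

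Fabp1, the liver fatty acid binding protein, was the 1 textbook target whose promoter held a match in a search for the sequence that PPARα and RXR bind. The match was to a looser form of that sequence, and the promoter is printed for that reason. Fabp1 had 6536 to 9292 CPM in WT (median 8087) and 2999 to 7217 CPM in HZ (median 6437), at -0.43 ± 0.15. HZ 38 was the lowest by far, and without HZ 30 and HZ 38 the difference was -0.28, with a p below 0.05. The window of 300 bases below, from RefSeq on GRCm38.p6, lies at chr6:71199629-71199928 on the plus strand and runs from 250 bases before the start of the transcript to 50 bases after it, with the motif in capitals.
Fabp1: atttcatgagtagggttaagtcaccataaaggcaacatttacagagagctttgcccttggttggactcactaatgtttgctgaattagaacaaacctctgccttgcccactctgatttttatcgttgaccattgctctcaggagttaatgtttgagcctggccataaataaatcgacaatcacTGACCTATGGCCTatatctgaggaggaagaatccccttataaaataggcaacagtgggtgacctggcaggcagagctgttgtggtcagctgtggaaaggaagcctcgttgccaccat
The search was for the half-site AGGTCA repeated with 1 base between the copies, with any base allowed at the T of each copy, on both strands. The Fabp1 match reads on the minus strand, and its first base is 67 bases before the start. Matches of that form were in 34 of the 9205 promoters of tested genes in the table (0.369%), and the strict form was in 4 of them (0.0435%). The looser form was also in the promoters of Clock, Cyp2d9, F7 and Gdf15, which are not on the list of textbook targets. Of the 13 textbook targets with a promoter in the table, 1 held a match (7.69%) and 0 held the strict form. Elements further from the start were not searched.

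The remaining lipid groups were mixed. Of 13 genes of microsomal omega oxidation, 7 were lower and 2 higher: Aldh3a2, which oxidises fatty aldehydes, had 489 to 1290.1 CPM in WT and 309.9 to 767 CPM in HZ (-0.72 ± 0.24), and Cyp4v3 had 402 to 523 and 437 to 636 CPM (0.22 ± 0.08). Of 10 ketone body genes 3 were lower, among them Slc16a1, the lactate and ketone body transporter (-0.86 ± 0.29), and Acat1 (-0.27 ± 0.12). The median of the ketone body list was -0.11, and -0.07 without HZ 30. Fatty acid uptake, binding and activation had 9 of 27 lower and 2 higher, with Fabp2 at 49.0 to 74.1 CPM in WT and 29.1 to 58.4 CPM in HZ (-0.46 ± 0.13).

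De novo lipogenesis and triglyceride synthesis had 6 of 25 members lower and none higher, with a median of -0.20. Me1, malic enzyme, which supplies NADPH, had 134 to 483 CPM in WT (median 224) and 93.1 to 209 CPM in HZ (median 158), at -0.77 ± 0.24. The elongases Elovl5 and Elovl6 were at -0.46 ± 0.17 and -0.43 ± 0.17, and the acyltransferase Agpat3, with 295 to 344 CPM in WT and 227 to 301 CPM in HZ, at -0.25 ± 0.07. Among the WY animals, Elovl5 and Elovl6 were at 0.17 ± 0.12 and 0.16 ± 0.16, the opposite sign, and the median of the list was 0.08.

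Genes of cholesterol synthesis and uptake had the opposite sign. Of 24 tested, 11 were higher in HZ at p below 0.05 and none was lower, and the median was 0.22. Mvk had 25.8 to 36.6 CPM in WT (median 32.4) and 35.2 to 46.8 CPM in HZ (median 41.5), at 0.41 ± 0.08. HZ 34 was the one HZ animal inside the WT range, and DESeq2 and limma called the gene, with adjusted p-values of 0.00525 and 0.0316. Sqle, squalene epoxidase, had 123 to 214 CPM in WT and 181 to 265 CPM in HZ (0.36 ± 0.12), and Cyp51, lanosterol demethylase, had 239.9 to 400.4 and 354 to 447 CPM (0.33 ± 0.11).

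The count of cholesterol genes rested on which animals were compared. With HZ 30 and HZ 38 left out, the median was 0.24 with 7 genes higher, but among the animals numbered 29 to 39 it was 0.04 with 1 gene higher. Under WY, 1 of the 24 was negative, and 7 were higher and none lower at p below 0.05, with a median of 0.36.

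Inflammatory genes had positive differences that depended on HZ 30 and HZ 38. Of 28 acute phase genes, 11 were higher and 1 was lower, with a median of 0.61, and without those 2 animals 2 were higher and 2 lower with a median of 0.02. Without HZ 30 alone the median was 0.15. Saa2, serum amyloid A, had 9.23 to 73.1 CPM in WT (median 17.6) and 9.49 to 2746 CPM in HZ (median 18.8). HZ 30 alone held the high value, and the difference of 4.06 ± 1.47 became -0.35 without HZ 30 and HZ 38, with a p above 0.05. Lcn2, lipocalin 2, had 5.05 to 21.9 CPM in WT (median 6.21) and 6.28 to 401 CPM in HZ (median 11.0), at 3.53 ± 1.11, and 0.40 without the pair, with a p above 0.05. Serpina3n had medians of 315 and 452 CPM (0.71 ± 0.25, and 0.36 without the pair, where the p stayed below 0.05, and 0.41 without HZ 30 alone), and Crp, C-reactive protein, had 254 to 405 and 315 to 504 CPM (0.36 ± 0.11, and 0.23 without the pair, again with a p below 0.05).

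The Alpk1-Tifa pathway senses a sugar metabolite of bacteria and activates NF-kB. Of 21 genes in that list, 6 were higher and none was lower, with a median of 0.43, and without HZ 30 and HZ 38 it was 3 higher and a median of 0.03. Without HZ 38 alone the median was 0.15. The kinase Alpk1 had 3.42 to 5.02 CPM in WT (median 4.60) and 4.64 to 22.9 CPM in HZ (median 6.52), at 1.25 ± 0.36. Its adaptor Tifa had 4.40 to 9.83 CPM in WT (median 5.67) and 5.98 to 41.6 CPM in HZ (median 12.6), at 1.47 ± 0.43. HZ 30 and HZ 38 were the 2 highest animals in both, and without them the differences were 0.50 and 0.67, both with a p below 0.05. Both were higher in the WY animals as well, at 0.89 ± 0.20 and 0.62 ± 0.12 with adjusted edgeR p-values of 0.0288 and 0.0231. Alpk1 and Tifa are neighbours on chromosome 3. Irf5, a transcription factor of macrophages, had 6.32 to 13.0 CPM in WT and 9.11 to 19.3 CPM in HZ (0.66 ± 0.18).

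Markers of several immune cell types were also highest in HZ 30 or HZ 38, though not all in both. All 14 Kupffer cell and macrophage markers had a positive difference, 4 of them at p below 0.05, with a median of 0.39. The differences ran from 0.05 ± 0.10 in Clec4f, the most abundant marker, whose p was above 0.05, to 0.78. The summed level of the markers was 496 to 646 CPM in WT and 485 to 964 CPM in HZ, highest in HZ 30. Leaving out HZ 30 and HZ 38, the median was 0.03 with 1 marker higher, and without HZ 30 alone it was 0.24. HZ 35 too was above every WT animal in the list's mean log2 CPM, at 5.25 against at most 4.82. Cd163, the haemoglobin scavenger receptor of macrophages, had 12.4 to 25.2 CPM in WT (median 19.4) and 20.5 to 40.9 CPM in HZ (median 26.4), at 0.60 ± 0.18, and at 0.53 without the pair, with a p below 0.05. All 6 tested neutrophil and monocyte markers were positive, 2 at p below 0.05, and the summed level of the 9 found was 6.51 to 12.0 CPM in WT and 7.19 to 33.5 CPM in HZ. The median of neutrophils and monocytes was 0.83, and 0.20 with none at p below 0.05 without HZ 30 and HZ 38. HZ 35, with a list mean of 1.33, was again above every WT animal, of which the highest was at 0.80. All 7 MHC class II genes were positive and none had a p below 0.05. The median was 0.50, 0.11 without HZ 38, the highest animal, and 0.10 without both, and HZ 30 lay within the WT range of the list mean. The part of these cells in the inflammatory genes was not tested. After WY, 10 of the 14 Kupffer cell markers were higher at p below 0.05 and none was lower.

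MHC class I and immunoproteasome genes had 6 of 15 higher and none lower, with a median of 0.29, and 3 higher with a median of 0.12 without HZ 30 and HZ 38 (0.18 without HZ 38 alone). The subunit Psmb9 had 3.98 to 8.86 CPM in WT (median 6.71) and 7.05 to 18.3 CPM in HZ (median 9.03), at 0.69 ± 0.22. None of 29 interferon-stimulated genes had a p below 0.05 under vehicle, where WT 76 had the highest mean of that list, whereas in the WY animals 19 of the 29 were higher at p below 0.05 against 14% of all genes.

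Complement and coagulation factors, made mainly by hepatocytes, had 14 of 26 members higher and none lower, with a median of 0.26. Here 6 of the 7 HZ animals had a list mean above every WT animal. The complement component Hc had 1243 to 1682 CPM in WT (median 1414) and 1347 to 2540.4 CPM in HZ (median 1970.0), at 0.42 ± 0.13. C9 had 574 to 675 and 645 to 933 CPM (0.25 ± 0.08), the protease Masp1 85.7 to 103 and 93.2 to 121 CPM (0.21 ± 0.06), and coagulation factor F5 491 to 637 and 582 to 789.5 CPM (0.29 ± 0.08). Without HZ 30 and HZ 38 the median was 0.10 with 6 members higher. In the animals given WY, 13 members were higher at p below 0.05, among them Masp1 (0.38, adjusted p = 0.0240) and Hc (0.42, adjusted p = 0.0449).

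**Figure D4:**
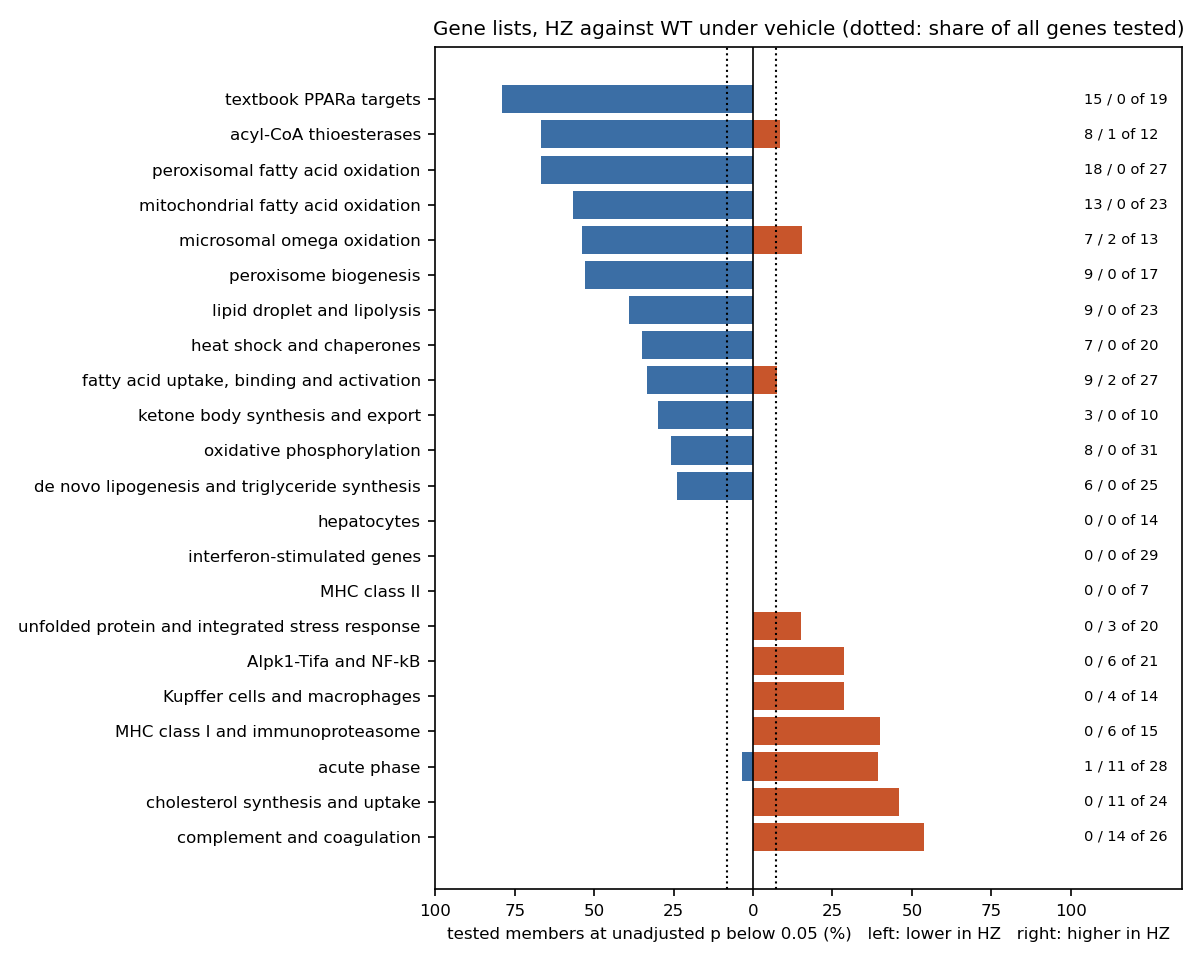
Bars give the percent of each list's tested members at an unadjusted p below 0.05, lower in HZ to the left (blue) and higher to the right (orange), with the counts at the right edge and dotted lines at the shares of all genes, 8.11% lower and 7.27% higher. PPARα targets, thioesterases and fatty acid oxidation reach furthest to the left, and complement and cholesterol genes furthest to the right.

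All 20 tested heat shock and chaperone genes had a negative difference, 7 of them at p below 0.05, with a median of -0.20. Hsp90aa1 had 70.0 to 136 CPM in WT (median 92.9) and 49.1 to 91.8 CPM in HZ (median 72.6), at -0.46 ± 0.15. Its activator Ahsa1 had 101 to 126 and 78.6 to 106 CPM (-0.26 ± 0.07), and the mitochondrial chaperonin Hspe1 had 57.7 to 77.5 and 42.6 to 64.7 CPM (-0.26 ± 0.09). In the treated animals, 11 of the 20 were lower at p below 0.05, and Hsp90aa1 (-0.34) and Hspe1 (-0.28) had adjusted edgeR p-values of 0.0368 and 0.0371. Among the animals numbered 29 to 39 under vehicle the median was -0.09.

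Subunits of oxidative phosphorylation differed by small amounts. Of 31 tested, 30 had a negative difference, 8 at p below 0.05, with a median of -0.11 and a lowest value of -0.24. That was Cox5b of cytochrome c oxidase, with 49.4 to 58.7 CPM in WT (median 55.6) and 39.3 to 50.6 CPM in HZ (median 46.8). Ndufb8 of complex I had 94.1 to 106 and 69.2 to 98.3 CPM (-0.20 ± 0.07). Leaving out HZ 30 and HZ 38, 2 members were lower and the median was -0.07. Under WY, all 31 were negative, 24 at p below 0.05, with a median of -0.19.

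Shorter genes were more often lower in HZ and longer genes more often higher, though the animals of the 2 groups overlapped. Among the 11565 genes with a known length (94.2% of those tested), the shortest 25% had a median of -0.02, with 10.5% lower and 5.12% higher, and the longest 25% a median of 0.04, with 4.74% lower and 9.20% higher. The difference of short minus long genes was 0.03 ± 0.06 (SD, n = 7) in WT and -0.03 ± 0.09 (SD, n = 7) in HZ. It ran from -0.06 in WT 78 to 0.11 in WT 37. HZ 38, HZ 71 and HZ 34 were at -0.15, -0.12 and -0.11, whereas HZ 39, HZ 35 and HZ 36 were at 0.07, 0.06 and 0.06. The part of length in the small differences was not tested beyond removing the trend, which left 1008 genes lower and 877 higher.

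Some single genes of stress and nutrient signalling were higher in HZ, and others were lower. Ddit4, an inhibitor of mTORC1 induced by stress and glucocorticoids, had 3.48 to 15.9 CPM in WT (median 7.74) and 11.8 to 29.6 CPM in HZ (median 18.3), at 1.22 ± 0.31. WT 37 was the one WT animal inside the HZ range, and the 3 alternative fits all called it. Sesn2, another inhibitor of mTORC1, had 5.39 to 7.26 CPM in WT (median 6.88) and 6.57 to 12.4 CPM in HZ (median 8.49), at 0.52 ± 0.13, and Chac1 of the integrated stress response had 0.842 to 4.09 and 1.60 to 10.6 CPM (1.17 ± 0.43). Without HZ 30, the highest animal, the Chac1 difference was 0.76. Sesn2 and Chac1 were 2 of the 3 genes higher in the list of the unfolded protein and integrated stress response, where 15 of 20 were positive and none lower at p below 0.05, and 1 was higher without HZ 30 and HZ 38.

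Igfbp1, a hepatic binding protein of insulin-like growth factors that insulin represses, had 20.4 to 52.0 CPM in WT (median 24.0) and 37.9 to 103 CPM in HZ (median 58.2), at 1.07 ± 0.28. With WY, it was at -0.48 ± 0.40, and the unadjusted edgeR p of the change was 0.00475. Bok, a BCL2 family member, had 2.69 to 5.68 CPM in WT (median 4.03) and 4.87 to 12.8 CPM in HZ (median 6.19), at 0.91 ± 0.22, and all 3 alternative fits called it. Of the 14 tested p53 targets, to which Bok belongs, 2 were higher and 2 lower at p below 0.05, with a median of 0.16. The lower ones were the stress genes Gadd45a and Gadd45b. Krt23, a keratin of stressed hepatocytes and bile ducts, had 2.61 to 8.56 CPM in WT (median 6.08) and 0.204 to 2.95 CPM in HZ (median 1.09), at -2.07 ± 0.43. HZ 71 was the one HZ animal inside the WT range, and in the WY animals the difference was -0.86 ± 0.19 with an adjusted edgeR p of 0.0299.

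The difference between genotypes was tested against that in the WY animals over all 28 libraries. No gene of 12607 passed an adjusted p of 0.05 in edgeR, 1182 had an unadjusted p below 0.05, DESeq2 called 3 genes and limma 1, with 1221 and 2116 at an unadjusted p below 0.05. The genes called were Dyrk2, by both, and Atxn1 and Rnf125, by DESeq2. Acot3 was at -2.62 ± 0.75 under vehicle and -0.35 ± 0.15 in the WY animals, and Pex11a at -1.25 ± 0.33 and -0.16 ± 0.08. The unadjusted edgeR p of the change was 0.00484 and 0.00445, and neither passed adjustment.

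**Figure D5:**
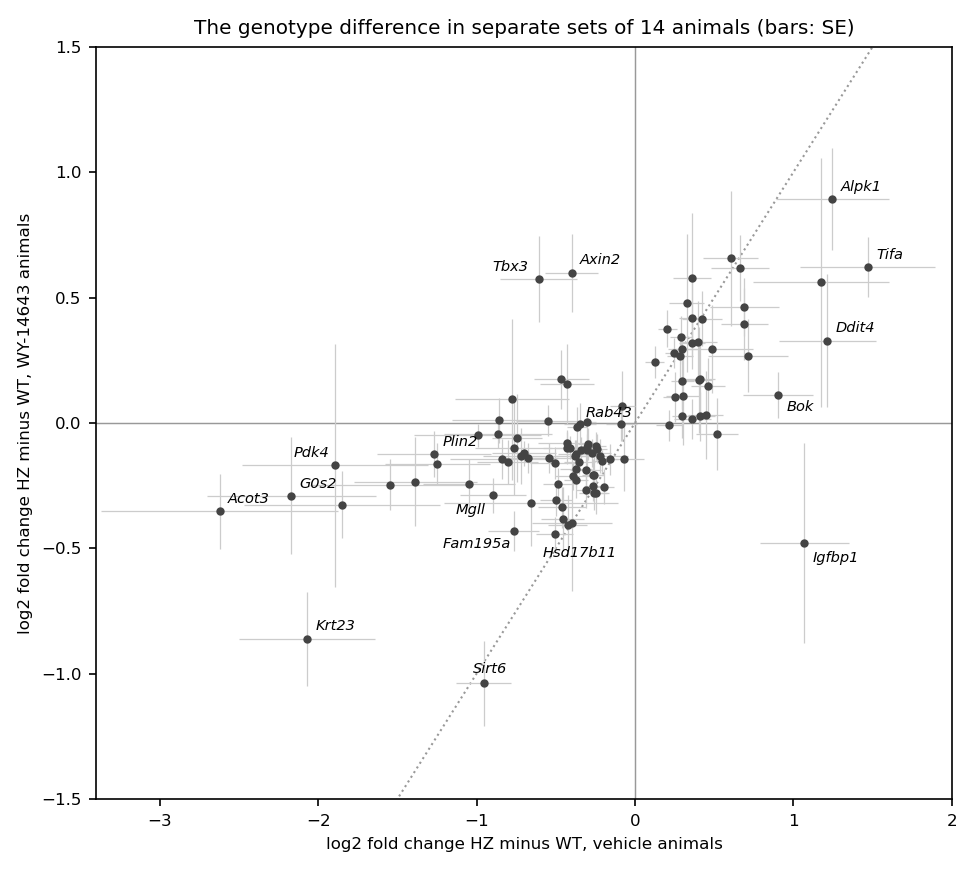
Points are 108 of the 110 genes looked at singly, with the log2 fold change HZ minus WT in the 14 vehicle animals on the x axis and in the 14 separate WY animals on the y axis, bars of 1 SE and a dotted line of equal differences. Sirt6 lies near that line, wide lipid genes such as Acot3, G0s2 and Plin2 lie far to the left of it near 0 on the y axis, Igfbp1, Axin2 and Tbx3 have opposite signs on the axes, and Saa2 and Lcn2 lie beyond the axes.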

How the data were processed

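RNA was extracted with Trizol from flash-frozen liver and 1 ug was made into libraries with a NEBNext Ultra kit, per the labels. The deposited values are whole-number read counts per gene symbol, for which the authors named the tools HTSeq 0.6.1p1, STAR 2.5.0a and DESeq2 1.18.1 and the build mm10, per the submitters' processing notes. The annotation and the strand setting do not appear in those notes, so overlapping and antisense genes cannot be told apart. The summary rows of HTSeq (reads not unique, 37.2% to 42.6%, no feature, 7.85% to 9.08%, ambiguous, 0.413% to 0.467%) and 25 rows whose gene names had turned into dates (0.147% to 0.160% of gene counts) were left out. No 2 animals of a group agreed within sampling noise (chi-square per degree of freedom at least 14.4).

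Counts of the 14 vehicle libraries were filtered with filterByExpr, scaled by TMM and tested with edgeR 4.0.16 (robust quasi-likelihood, R 4.3.3) and Benjamini-Hochberg adjustment over 12277 genes, with 12 residual degrees of freedom. The script was tested on simulated data. Alternatives were DESeq2 1.42.0, limma 3.58.1 with voom quality weights, other scaling and filters, the spread of all 28 libraries, a term for animals 71 to 78, and leaving out animals. The WY animals, a separate table, were fitted alone, and the change between treatments over both tables. Positions and lengths were from GENCODE M21 on GRCm38. Named genes were Sirt6, the textbook PPARα targets, the 12 smallest p-values in each direction at a mean of at least 5 CPM, and from each of 46 lists the 4 members with the smallest p and the most abundant marker. Some genes that this rule names are not reported here. The members and lists were chosen with earlier results of these data known. Of 813 listed genes, 807 were found and 739 tested.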

Additional observations from a re-analysis of the deposited data

Results flagged for a closer look

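In each group of 7 animals, the lowest and highest value of 110 genes and 25 lists were set against the rest with Dixon's test, and 16 of 270 groups had an animal far from the others. Chance flags about 1 in 20 groups, and the share flagged here was close to that. All values here are log2 CPM.

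HZ 38 was far below the other HZ animals for 5 lipid and ligase genes. It was at 6.37 for Mlycd against 6.61 in the nearest animal, at 7.24 for Mgll against 8.12, at 3.85 for Acot8 against 4.52, at 11.6 for Fabp1 against 12.5 and at 2.39 for Rnf186 against 3.03. Its mean of MHC class II genes was 4.87, above the next at 3.51.

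HZ 30 was far above the others in acute phase genes. Its list mean was 9.72 against 8.27, its Saa2 level 11.4 against 5.59 and its Serpina3n level 10.2 against 9.04. HZ 71 was high for Acot12, at 7.49 against 7.24, and for Angptl4, at 8.02 against 7.66.

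Among WT animals, WT 76 had a mean of interferon-stimulated genes of 4.61 against 3.22 and a Tor1b level of 5.87 against 5.67. WT 37 was high for Chsy3, at 3.14 against 2.83. WT 29 was low for Cyp4v3, at 8.65 against 8.89, and WT 32 was low for Gpld1, at 7.81 against 8.25.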

How the results depend on the processing

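The count of genes with an adjusted p below 0.05 was 0 in the vehicle fit and 261 with the spread of 28 libraries, 197 with DESeq2 and 197 with limma. Leaving out 1 animal gave 0 to 2, the 2 being Rab43 and Lipg without WT 31. Genes lower at an unadjusted p below 0.05 numbered 519 among animals 29 to 39 and 627 without HZ 30 and HZ 38, and genes higher 583 and 467. With a term for animals 71 to 78, 820 genes were lower and 615 higher at that p, and 0 passed adjustment. Leaving out 1 animal gave 585 genes higher without HZ 38 and up to 1128 without HZ 71. Sirt6 passed adjustment at -0.97 with 28 libraries, -0.96 with DESeq2 and -0.91 with limma. The complement median was 0.10 without HZ 30 and HZ 38. The test of the change between treatments gave 3 genes with DESeq2 and 1 with limma. Saa2 turned to -0.35 without HZ 30 and HZ 38, and ranged from -0.027 without HZ 30 to 4.63 without WT 29. Alb turned to 0.066 without HZ 30 and HZ 38, and ranged from -0.11 without WT 29 to 0.0021 without HZ 30. The cause of these changes was not tested. A further 3116 planned values kept their direction and side of the threshold, and 175 values passed it only under an alternative. The filter at 5 CPM left no neutrophil marker, so that list has no value there. Removing the length trend was chosen after seeing the data. No paired analysis was possible because no animal number occurs in both groups.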

Other observations

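Some genes outside the groups above differed by small and even amounts. Gt(ROSA)26Sor, a ubiquitously transcribed locus singled out after its values were seen, had 9.61 to 10.7 CPM in WT (median 9.93) and 7.53 to 9.23 CPM in HZ (median 8.39), with no overlap. Its difference was -0.24 ± 0.06 under vehicle and -0.28 ± 0.08 in the WY animals.

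A pair of Wnt-related genes of pericentral hepatocytes had opposite signs under the 2 treatments. Axin2, a feedback inhibitor of Wnt signalling, had 5.33 to 11.4 CPM in WT and 4.03 to 8.18 CPM in HZ under vehicle, at -0.40 ± 0.17, and was at 0.60 ± 0.16 in the WY animals (adjusted p = 0.0444). Tbx3, a transcription factor downstream of Wnt, was at -0.61 ± 0.25 and 0.57 ± 0.17. The change between treatments had unadjusted edgeR p-values of 0.000244 and 0.000799, and neither passed adjustment. This pair did not stand for its list. Of the 16 pericentral genes, 13 had a positive difference under vehicle, with a median of 0.17. At p below 0.05, 2 were lower, Axin2 and Tbx3, and 2 higher, Slc1a2 (0.65 ± 0.20) and Gulo (0.33 ± 0.10).

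Several lists showed few differences under vehicle. None of 14 core clock genes and none of 18 cell cycle genes had a p below 0.05, and of 22 genes of gluconeogenesis and fasting signals 3 were lower and 2 higher, with a median of 0.01. Of 25 genes of glycolysis and Hif1a targets, 1 was lower and 2 were higher, with a median of -0.02, which was 0.02 without HZ 38. Markers of sinusoidal endothelium had 1 of 13 higher and none lower, and those of stellate cells and matrix 2 of 17 higher and 1 lower.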
